A study of Mus musculus with 18 samples.

Results

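The dual-specificity MAPK phosphatases were described here as 9 genes, Dusp1, Dusp2, Dusp3, Dusp4, Dusp5, Dusp6, Dusp7, Dusp10 and Dusp16, chosen by gene name from the 21734 protein-coding genes in the table. All 9 were in the table, and all 9 passed the filter on low counts that left 11357 genes for testing. RNA was sequenced from macrophages grown out of mouse bone marrow (BMDMs) in M-CSF at 10 ng/ml for 8 to 9 days. The mice were 6 to 7 months old and of a mixed 129 and B6 background, and every group shares that background and those culture conditions. WT mice carry the normal mir-146a gene, KO mice carry a germline deletion of it, and 3F mice carry a mir-146a in which part of the 3′ region of the mature strand was exchanged with the opposite strand while the seed was kept. Cultures of the 3 genotypes were kept resting or treated with LPS at 1 ng/ml for 16 h, which gave 6 groups of 3 libraries. The KO and 3F alleles were made in separate embryonic stem cell lines, and each is present in every cell of the mouse, so the groups do not isolate an effect that starts in the macrophage.

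These phosphatases switch off MAP kinases by removing the phosphates from both the threonine and the tyrosine of the kinase activation loop. In macrophages LPS acts through TLR4 to activate ERK, JNK and p38, and several of the phosphatases are themselves induced within the first hours, so that they form a negative feedback on the signal. The family divides by location and by preferred kinase. Dusp1, Dusp2, Dusp4 and Dusp5 are nuclear and inducible, Dusp6 and Dusp7 are cytoplasmic and prefer ERK, Dusp10 and Dusp16 prefer JNK and p38, and Dusp3 is a small atypical member that lacks the kinase-binding domain of the others.

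The libraries held 4071084 to 19818043 counts. The macrophage list (Adgre1, Csf1r, Lyz2 and others) summed to between 31800 and 87900 CPM, a unit of 1 read in 1000000 after TMM scaling, and the KO libraries with LPS had the 3 highest sums. Lyz2 made up most of these sums, with means of 65100 CPM in KO and 43800 in WT after LPS. Adgre1, Csf1r, Mertk and Fcgr1 also had higher means in KO than in WT after LPS. Itgam (219 against 330 CPM) and Cd68 (697 against 796 CPM) had lower means there, and Cd14 was nearly equal. Of the T cell list Cd3e was at 0 in every library and Cd3d, Cd3g and Cd8a had at most 2 counts, whereas Cd4 ran from 0.449 to 11.2 CPM. Of other lists, the platelet gene Pf4 ran from 108 to 590 CPM and the neutrophil gene S100a8 from 6.70 to 48.3 CPM. The part of these markers in the results was not tested. Resting KO replicate 3 stood apart from its group, with 4470 CPM summed over 6 LPS-induced genes (Cxcl10, Ifit1, Rsad2 and others) against 328 and 282 CPM in the other resting KO libraries. Resting 3F replicate 3 also stood apart, and it was the library with the lowest total. The value without both is given beside a result where it changed a call or moved far. In bulk RNA, fewer cells that express a gene and less of its RNA per cell cannot be told apart.

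miR-146a acts through its seed, bases 2 to 8 of the mature strand, which the 3F allele keeps. The WT strand is shown from RefSeq (GRCm38, chr11:43374435-43374456, minus strand) with the seed in capitals, because both mutant alleles act on this molecule.
mmu-miR-146a-5p: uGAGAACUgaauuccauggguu
Sites of 7 or 8 bases were searched in the longest annotated 3′ UTR of each gene (GENCODE M21). The letters were AGTTCTC, which pairs with bases 2 to 8, and GTTCTCA, which pairs with bases 2 to 7 and ends in an A, and an 8mer holds both. They were found in 3 of the 9 members, against 18.2% of 20786 genes in the table with such a UTR. Dusp16 held 2 matches, 1 of them an 8mer, in a UTR of 2416 bases, Dusp3 held 1 in 3591 bases and Dusp7 held 1 in 1778 bases. The UTRs of the other 6 members ran from 581 to 1190 bases and held none. The 7mers found in the members all had the letters GTTCTCA. The match and its flanks are printed in 30 bases of exon, 5′ to 3′ on the gene strand, with the matched bases in capitals, from chr6:134716901-134716930 and chr6:134716062-134716091 (Dusp16, minus strand), chr11:101973443-101973472 (Dusp3, minus strand) and chr9:106374506-106374535 (Dusp7, plus strand).
Dusp16, 7mer: acagaacctcagGTTCTCActtctgtttcg
Dusp16, 8mer: aaaatgtctaaAGTTCTCAaagcttcacag
Dusp3, 7mer: ttgggacttcacGTTCTCAttatttgtatg
Dusp7, 7mer: gagagagagagtGTTCTCAgtttcttgttt
A match is a description of these letters and does not show that miR-146a binds there.

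Compared per kb of exon, the members differed widely in level. In resting WT the mean was highest for Dusp3, at 79.5 ± 4.66 CPM per kb (SD, n = 3), followed by Dusp1 at 54.4 ± 13.0, Dusp6 at 31.5 ± 3.18, Dusp4 at 27.8 ± 1.42 and Dusp7 at 17.7 ± 4.07. Dusp5 at 5.94 ± 2.20, Dusp2 at 2.31 ± 0.261, Dusp16 at 1.64 ± 0.264 and Dusp10 at 0.611 ± 0.236 CPM per kb made up the lower part of the order. Of these neighbours only Dusp6 and Dusp4 overlapped between libraries. Dusp10 had the lowest mean in all 6 groups. Dusp3 had the highest mean in every group except KO after LPS, where Dusp1, at 39.8 ± 3.13 CPM per kb, was above Dusp3, at 35.2 ± 1.96, with no overlap between libraries. Dusp3 and Dusp1 overlapped in resting KO and in resting 3F. Dusp4 was above Dusp7 in the other 5 groups, whereas after LPS in KO it stood at 9.77 ± 0.510 CPM per kb, below Dusp7 at 11.2 ± 1.06, and those ranges overlapped. Dusp16 stood in eighth place in every resting group and in sixth place after LPS in all 3 genotypes.

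**Figure D1:**
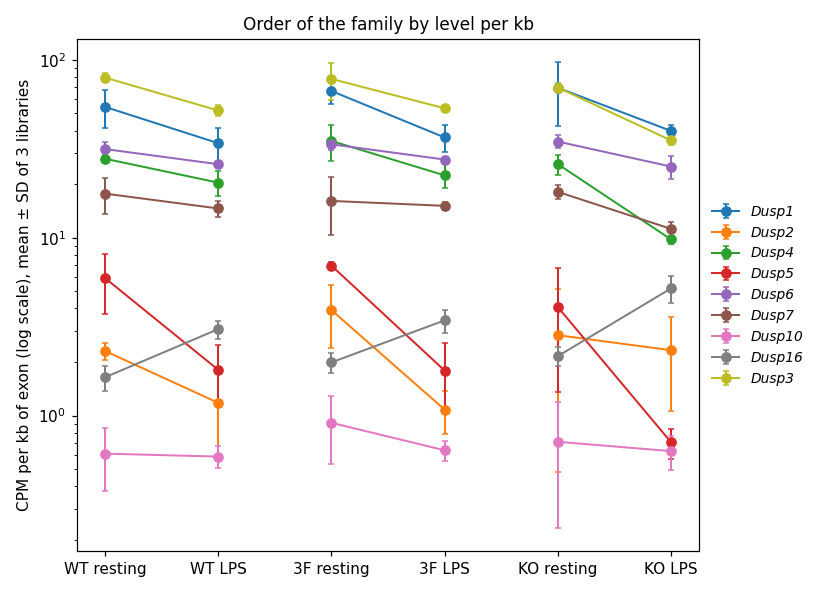
Mean level of each phosphatase in CPM per kb of exon (log axis) in the 6 groups, with lines joining resting and LPS of 1 genotype and bars for the SD of 3 libraries. Dusp16 climbs in each genotype while the lines of Dusp5 fall, and Dusp4 falls to 9.77 CPM per kb after LPS in KO.

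The summed level of the 9 members was lower after LPS than at rest. It went from 221 ± 16.4 to 153 ± 13.2 CPM per kb in WT, from 243 ± 42.3 to 162 ± 10.5 in 3F and from 228 ± 37.7 to 130 ± 6.08 in KO (SD, n = 3 each). The resting and LPS libraries did not overlap in any genotype. In KO after LPS, Dusp1 made up 30.7% ± 1.58 of the sum and Dusp4 7.55% ± 0.740, whereas in WT after LPS these shares were 22.0% ± 3.10 and 13.3% ± 1.79.

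The response to LPS was measured first, as the change between resting and 16 h of LPS within a genotype. Genes were called at an adjusted p under 0.05 over all 11357 genes. In WT, 3 of 9 members were called, beside 28.5% of all genes tested. Dusp16 rose, where 16.3% of all genes were called higher, and Dusp3 and Dusp5 fell, where 12.3% were called lower. In 3F, 5 of 9 were called beside 31.2% of all genes. Dusp16 again rose (17.2% of all genes higher), and Dusp1, Dusp3, Dusp4 and Dusp5 fell (14% lower). In KO, 7 of 9 were called beside 26.9% of all genes. Dusp16 rose (14.3% of all genes higher), and Dusp1, Dusp3, Dusp4, Dusp5, Dusp6 and Dusp7 fell (12.6% lower). The median log2 fold change of the 9 members was −0.45 in WT, −0.55 in 3F and −0.70 in KO, beside 0.02, −0.01 and 0.02 over all genes tested. Without both libraries that stand apart, 7 members were called in KO and 8 in 3F. In WT the count was 6 with DESeq2. Over all genes tested, more were also called in WT with DESeq2 and in KO without both libraries.

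**Figure D2:**
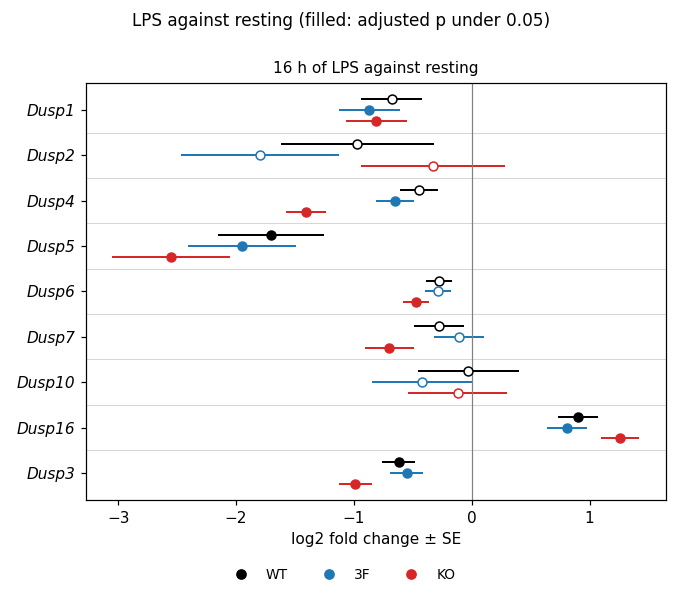
Log2 fold change of each phosphatase between resting and LPS libraries in WT, 3F and KO, with bars for the SE and filled points for an adjusted p under 0.05. Dusp16 lies right of 0 in all 3 genotypes, and the KO points of Dusp3, Dusp4 and Dusp5 lie farthest left of the 3 genotypes, at −0.99, −1.41 and −2.55.

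Dusp1 (ENSMUSG00000024190, chr17:26505590-26562128, minus strand) encodes MKP-1, the nuclear phosphatase of p38 and JNK that restrains cytokine production after LPS. It stood at 86.6, 101 and 137 CPM in resting WT and at 84.1, 56.6 and 62.2 after LPS. In 3F it stood at 150, 139 and 110 CPM at rest and at 87.0, 68.3 and 63.0 after LPS. In KO it stood at 182, 156 and 77.4 CPM at rest and at 75.9, 86.5 and 75.5 after LPS. Only in KO did the resting and LPS libraries overlap, through resting replicate 3. The log2 change was −0.68 ± 0.26 (SE) in WT (adjusted p 0.0591), −0.87 ± 0.26 in 3F (0.0171) and −0.81 ± 0.26 in KO (0.0273). The WT change was called in 6 of 12 alternatives. Leaving out resting KO replicate 1 or 2 or LPS replicate 1 or 3 ended the call in KO, with adjusted p values up to 0.159, and leaving out resting 3F replicate 1 or LPS replicate 2 or 3 ended it in 3F (up to 0.0652). Fitting the compared groups alone also ended the call in KO (−0.86, 0.084). Without both libraries that stand apart the change in KO was −1.17 with an adjusted p of 0.000117.

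Dusp4 (ENSMUSG00000031530, chr8:34807297-34819894, plus strand) encodes MKP-2, a nuclear phosphatase of ERK and JNK. It stood at 72.9, 75.0 and 80.5 CPM in resting WT and at 59.2, 62.6 and 45.6 after LPS. In 3F it stood at 105, 112 and 71.2 CPM at rest and at 71.7, 60.1 and 52.7 after LPS. In KO it stood at 73.3, 79.1 and 60.6 CPM at rest and at 28.0, 25.3 and 27.0 after LPS. Resting and LPS libraries overlapped only in 3F, where resting replicate 3 was just under LPS replicate 1, and the 3 KO libraries with LPS were the lowest of all 18. The fall was 2.65-fold in KO, a log2 change of −1.41 ± 0.17 (adjusted p 1.4e-05). In 3F the change was −0.65 ± 0.16 (0.00721), and in WT it was −0.45 ± 0.16 (0.0513), which did not pass. The WT change was called in 6 of 12 alternatives, among them the replicate block (0.0387).

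Dusp5 (ENSMUSG00000034765, chr19:53529109-53542431, plus strand) encodes a nuclear phosphatase specific to ERK. It had the largest fall of the 9 members in every genotype. It stood at 10.7, 12.5 and 20.9 CPM in resting WT and at 3.63, 6.42 and 3.37 after LPS. In 3F it stood at 16.5, 18.1 and 17.1 CPM at rest and at 6.59, 3.34 and 3.33 after LPS. In KO it stood at 12.1, 15.5 and 2.58 CPM at rest, the last in resting replicate 3, and at 1.58, 1.52 and 2.14 after LPS, which rest on 21 to 30 counts. Resting and LPS libraries did not overlap in any genotype. The log2 change was −1.70 ± 0.45 in WT (adjusted p 0.00975), −1.95 ± 0.46 in 3F (0.0044) and −2.55 ± 0.50 in KO (0.00125). Without resting WT replicate 3 the WT change was −1.37 (adjusted p 0.0525), and without both libraries that stand apart the KO change was −3.05.

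Dusp2 (ENSMUSG00000027368, chr2:127336159-127338376, plus strand) encodes PAC-1, a nuclear phosphatase found mainly in blood cells. Its level was low, and edgeR on all 6 groups called it in no genotype. It stood at 3.74, 3.31 and 4.16 CPM in resting WT and at 2.93, 1.02 and 1.76 after LPS. In 3F it stood at 4.46, 5.45 and 9.13 CPM at rest and at 2.20, 1.26 and 1.80 after LPS. In KO it stood at 7.23, 6.27 and 0.225 CPM at rest, the last from 2 counts in resting replicate 3, and at 3.10, 6.08 and 2.14 after LPS. WT and 3F libraries did not overlap between states, while KO libraries did. The log2 change was −0.97 ± 0.65 in WT (adjusted p 0.295), −1.80 ± 0.67 in 3F (0.0507) and −0.33 ± 0.61 in KO (0.729). In 3F it was called in 8 of 13 alternatives, among them DESeq2 (0.0317), the replicate block (0.0273) and the fit without both libraries that stand apart (−1.56, 0.00697). In KO limma-voom called it (adjusted p 0.043), and without both libraries that stand apart it was −0.92 (0.0523).

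Dusp6 (ENSMUSG00000019960, chr10:99263231-99267489, plus strand) and Dusp7 (ENSMUSG00000053716, chr9:106368632-106375724, plus strand) encode the cytoplasmic ERK phosphatases MKP-3 and MKP-X. Dusp6 moved within a narrow range, with group means of 88.2, 93.8 and 97.1 CPM in resting WT, 3F and KO and of 72.5, 77.0 and 70.2 after LPS. In each genotype every LPS library was below every resting library. The log2 change was −0.28 ± 0.11 in WT (adjusted p 0.0685), −0.29 ± 0.11 in 3F (0.0614) and −0.47 ± 0.11 in KO (0.00512). Dusp6 was called in 4 of 12 alternatives in WT and 5 of 13 in 3F, there also without both libraries that stand apart (−0.38, 0.00993). Dusp7 stood at 61.9, 62.2 and 53.1 CPM in resting KO and at 36.6, 32.8 and 39.7 after LPS, with no overlap. Its WT libraries ran from 45.3 to 71.7 CPM at rest and from 44.2 to 53.4 after LPS, and its 3F libraries from 31.1 to 66.4 and from 46.3 to 51.1, so both overlapped. The log2 change of Dusp7 was −0.28 ± 0.21 in WT (0.344), −0.11 ± 0.21 in 3F (0.717) and −0.70 ± 0.21 in KO (0.0202). The KO call of Dusp7 was lost without resting replicate 1 or 2 or LPS replicate 1 or 2 (adjusted p up to 0.0706), and in 3F Dusp7 changed by −0.40 (0.0478) without both libraries that stand apart.

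Dusp16 (ENSMUSG00000030203, chr6:134715468-134792625, minus strand) encodes MKP-7, a phosphatase of JNK and p38, and it alone of the 9 was called higher after LPS. It stood at 10.1, 13.9 and 13.0 CPM in resting WT and at 26.1, 21.4 and 21.5 after LPS. In 3F it stood at 15.1, 13.0 and 16.9 CPM at rest and at 29.5, 26.0 and 21.9 after LPS. In KO it stood at 17.9, 16.7 and 14.1 CPM at rest and at 35.1, 46.8 and 35.2 after LPS. In each genotype every LPS library was above every resting library, and the KO libraries with LPS were the highest of all 18. The log2 change was 0.90 ± 0.17 in WT (adjusted p 0.000794), 0.81 ± 0.17 in 3F (0.00181) and 1.26 ± 0.16 in KO (3.17e-05). The calls held in all alternatives run. Dusp10 (ENSMUSG00000039384, chr1:184013302-184075636, plus strand), which encodes MKP-5 and has the same preferred kinases, was the lowest of the family, with 14 to 47 counts per library. Its group means ran from 1.79 to 2.77 CPM, and its log2 changes of −0.03 ± 0.43 in WT (0.968), −0.42 ± 0.43 in 3F (0.478) and −0.12 ± 0.42 in KO (0.874) were smaller than their errors.

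Dusp3 (ENSMUSG00000003518, chr11:101971143-101987013, minus strand) encodes VHR, the atypical member, which acts on ERK and JNK. It stood at 361, 397 and 358 CPM in resting WT and at 257, 247 and 224 after LPS. In 3F it stood at 415, 415 and 267 CPM at rest and at 241, 259 and 250 after LPS. In KO it stood at 338, 338 and 305 CPM at rest and at 164, 156 and 174 after LPS. No genotype showed an overlap between states. The log2 change was −0.62 ± 0.14 in WT (adjusted p 0.0031), −0.55 ± 0.14 in 3F (0.00629) and −0.99 ± 0.14 in KO (5.9e-05). In 3F the adjusted p was 0.057 when the compared groups were fitted alone.

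**Figure D3:**
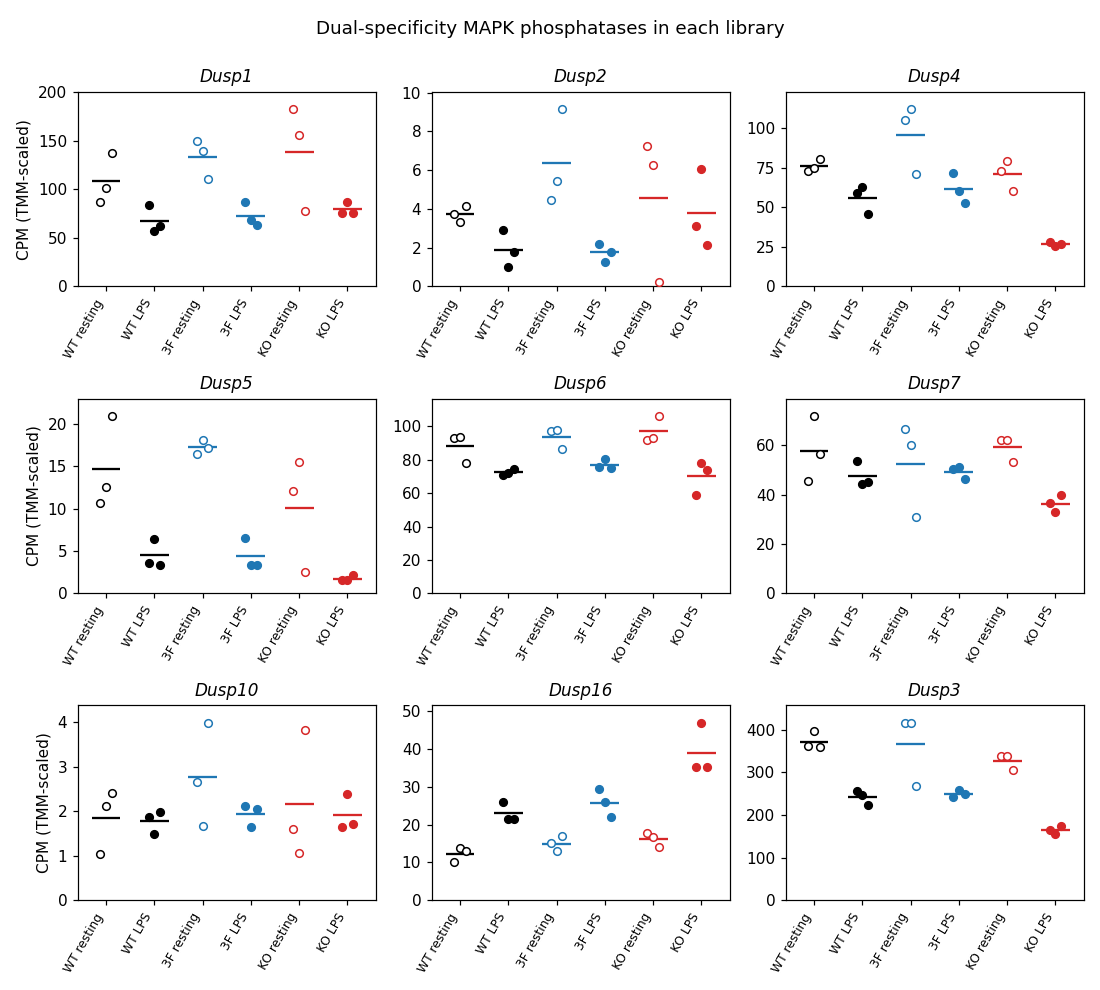
CPM of each phosphatase in every library, with open points for resting, filled points for LPS and a bar at the mean of 3 libraries. The KO libraries with LPS are the lowest of all 18 for Dusp3, Dusp4 and Dusp5 and the highest for Dusp16.

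The comparison of KO with WT asks how the family stands when miR-146a is lost. At rest, 0 of 9 members were called with edgeR, where 9.4% of all genes were called. DESeq2 and limma-voom also called 0, and 1 member, Dusp16, had an unadjusted p under 0.05. The log2 difference of Dusp16 was 0.41 ± 0.17 (adjusted p 0.152), and its resting KO libraries were all above those of WT. The differences of the other members were 0.36 ± 0.25 for Dusp1, 0.35 ± 0.61 for Dusp2, −0.10 ± 0.16 for Dusp4, −0.51 ± 0.43 for Dusp5, 0.14 ± 0.11 for Dusp6, 0.03 ± 0.21 for Dusp7, 0.18 ± 0.43 for Dusp10 and −0.19 ± 0.14 for Dusp3. Without both libraries that stand apart, Dusp1 was called higher in resting KO, at 0.67 with an adjusted p of 0.0272, while Dusp5 differed by −0.06 (0.922) and Dusp2 by 0.88 (0.125).

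After LPS, 3 of 9 members were called between KO and WT, beside 4.79% of all genes. Dusp16 was higher in KO, where 1.89% of all genes were called higher, and Dusp4 and Dusp3 were lower, where 2.9% were called lower. Dusp4 was 2.08-fold lower in KO, at a log2 difference of −1.06 ± 0.17 (adjusted p 0.00194), and its libraries at 25.3 to 28.0 CPM did not overlap with those of WT at 45.6 to 62.6 CPM. Dusp16 was 1.70-fold higher, at 0.76 ± 0.16 (0.0123), with 35.1 to 46.8 CPM in KO and 21.4 to 26.1 in WT. Dusp3 was 1.48-fold lower, at −0.56 ± 0.14 (0.0275), with 156 to 174 CPM in KO and 224 to 257 in WT. Dusp5 was at 1.52 to 2.14 CPM in KO and 3.37 to 6.42 in WT without overlap, but its difference of −1.35 ± 0.52 did not pass (0.157). Fitting the compared groups alone called Dusp5 (−1.37, 0.0374). Dusp7 likewise did not overlap, at 32.8 to 39.7 against 44.2 to 53.4 CPM, and had a difference of −0.39 ± 0.21 (0.363). Limma-voom called Dusp7 (−0.42, 0.0276). The differences were 0.23 ± 0.26 for Dusp1 (0.714), 0.98 ± 0.65 for Dusp2 (0.484), −0.05 ± 0.11 for Dusp6 (0.888) and 0.10 ± 0.42 for Dusp10 (0.944).

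The Dusp4 difference after LPS was called in every alternative run, from −1.18 to −0.97 with adjusted p values up to 0.0197. Dusp3 lost its call without WT LPS replicate 1 or 2 or any 1 of the 3 KO LPS libraries, with adjusted p values up to 0.15, and Dusp16 lost it without WT LPS replicate 2 (0.0752) or KO LPS replicate 2 (0.0921).

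**Figure D4:**
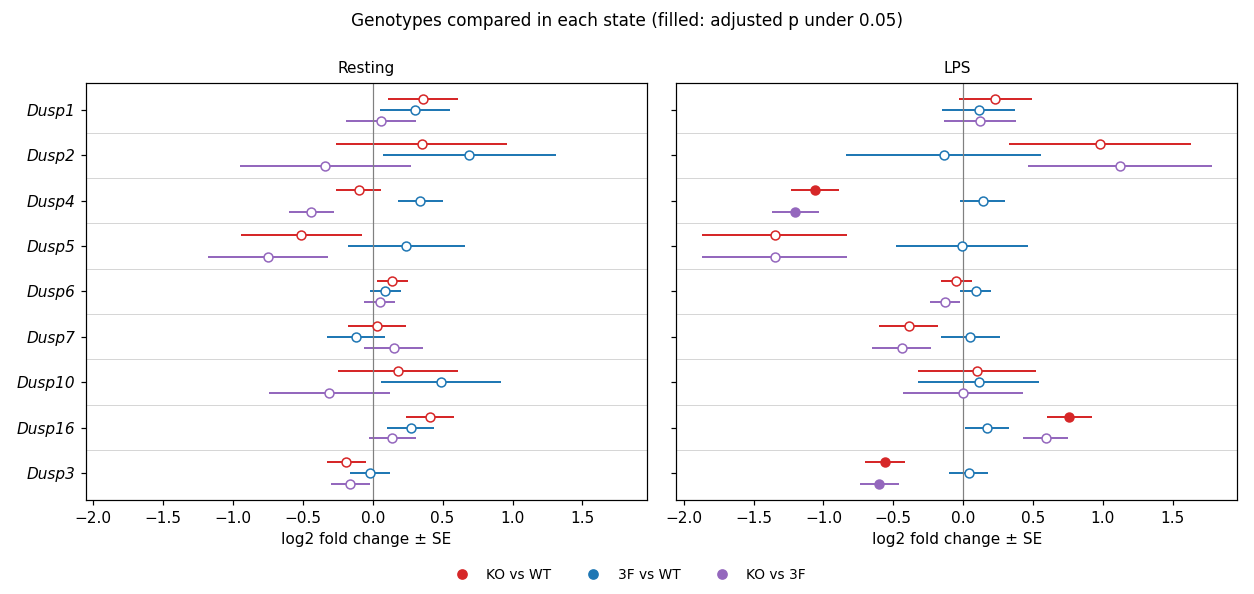
Log2 differences between genotypes for each phosphatase at rest (left) and after LPS (right), with bars for the SE and filled points for an adjusted p under 0.05. After LPS the filled points are Dusp4 and Dusp3, lower in KO than in WT and 3F, and Dusp16, higher in KO than in WT, while no point of 3F against WT is filled in either state.

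The comparison of 3F with WT asks how the family stands when the seed is kept and the 3′ region is altered. At rest 0 of 9 members were called, as were 0% of all genes, and after LPS 0 of 9 were called beside 0.00881% of all genes. No member had an unadjusted p under 0.05 in either state, and DESeq2 and limma-voom called 0 members in both. At rest the log2 differences were 0.30 ± 0.25 for Dusp1, 0.69 ± 0.62 for Dusp2, 0.34 ± 0.16 for Dusp4, 0.24 ± 0.42 for Dusp5, 0.09 ± 0.11 for Dusp6, −0.12 ± 0.21 for Dusp7, 0.49 ± 0.43 for Dusp10, 0.27 ± 0.17 for Dusp16 and −0.02 ± 0.14 for Dusp3. After LPS they were 0.11 ± 0.26 for Dusp1, −0.14 ± 0.70 for Dusp2, 0.14 ± 0.16 for Dusp4, −0.01 ± 0.47 for Dusp5, 0.09 ± 0.11 for Dusp6, 0.05 ± 0.21 for Dusp7, 0.11 ± 0.43 for Dusp10, 0.17 ± 0.16 for Dusp16 and 0.04 ± 0.14 for Dusp3. The 95% interval after LPS ran from −0.18 to 0.46 for Dusp4, from −0.22 to 0.31 for Dusp3 and from −0.14 to 0.49 for Dusp16. These intervals use normal quantiles of the SE and are narrower than the test itself would give. The SE was 0.42 or more in both states for Dusp2, Dusp5 and Dusp10.

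KO was also compared with 3F, which shares its KO libraries with the comparison against WT. After LPS 2 of 9 members were called, beside 3.88% of all genes, and both were lower in KO, where 2.37% of all genes were called lower. Dusp4 differed by −1.20 ± 0.17 (adjusted p 0.000943) and Dusp3 by −0.60 ± 0.14 (0.0223). Dusp16 was higher in KO by 0.59 ± 0.16 without overlap between libraries, at an adjusted p of 0.0502, and DESeq2 called it at 0.0208. The differences were −1.35 ± 0.52 for Dusp5 (0.181), −0.44 ± 0.21 for Dusp7 (0.304), 1.12 ± 0.66 for Dusp2 (0.443), −0.13 ± 0.11 for Dusp6 (0.623) and 0.12 ± 0.26 for Dusp1 (0.88), and that of Dusp10 was under 0.01 in size (0.996). The call of Dusp3 was lost without KO LPS replicate 1 or 2 or any 1 of the 3F LPS libraries, with adjusted p values up to 0.132. Fitting the compared groups alone called Dusp5 (adjusted p 0.0209) and Dusp7 (0.00803), and limma-voom called Dusp7 (0.0198). At rest 0 of 9 members were called with edgeR beside 12.9% of all genes, 1 had an unadjusted p under 0.05, and DESeq2 called 0 and limma-voom 2. That member was Dusp4, at −0.44 ± 0.16 (adjusted p 0.0826). Without resting 3F replicate 3, 2 members were called, both lower in KO, and Dusp4 was 1 of them, at −0.60 with an adjusted p of 0.031. The other was neither Dusp5 nor Dusp7 and is not named here. Dusp5 at −0.75 ± 0.43 and Dusp7 at 0.15 ± 0.21 were the extremes of the resting differences (−0.31 and −0.00 without both libraries that stand apart), and those of Dusp1, Dusp2, Dusp3, Dusp6, Dusp10 and Dusp16 lay between them.

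Whether the LPS response itself differed was tested by interactions. For KO against WT 0 of 9 members were called with edgeR, beside 0.00881% of all genes, and 1 had an unadjusted p under 0.05. This was Dusp4, whose log2 response was lower in KO by 0.96 ± 0.23 at a p of 0.000806 and an adjusted p of 0.482. DESeq2 (adjusted p 0.0485) and limma-voom with quality weights (0.0101) each called Dusp4 and no other member, and without both libraries that stand apart it was −1.10 (0.0159). The interaction was −0.37 ± 0.19 for Dusp3, −0.84 ± 0.67 for Dusp5, 0.36 ± 0.23 for Dusp16 and 0.63 ± 0.89 for Dusp2, each with an adjusted p of 1. Without both libraries that stand apart those of Dusp5 and Dusp2 were −1.31 (0.375) and 0.08 (0.982). The KO interaction was −0.13 ± 0.36 for Dusp1, −0.18 ± 0.16 for Dusp6, −0.42 ± 0.29 for Dusp7 and −0.08 ± 0.60 for Dusp10. The falls of Dusp1, Dusp6 and Dusp7 that were called in KO and not in WT are therefore not shown to differ between these genotypes. For 3F against WT 0 of 9 members and 0% of all genes were called, 0 members had an unadjusted p under 0.05, and DESeq2 and limma-voom called 0. The interactions ran from −0.83 ± 0.93 for Dusp2 to 0.17 ± 0.29 for Dusp7. Those of Dusp1, Dusp3, Dusp4, Dusp5, Dusp6, Dusp10 and Dusp16 lay between them.

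Other genes of the pathway were counted over whole lists. Of 14 tested genes for other dual-specificity phosphatases, LPS raised 1 and lowered 5 in WT, raised 1 and lowered 5 in KO and raised 3 and lowered 5 in 3F. These are 42.9%, 42.9% and 57.1% of the list, beside 28.5%, 26.9% and 31.2% of all genes. In WT the gene that rose was Dusp28 (1.15 ± 0.33), and the largest falls were Dusp13 (−1.40 ± 0.42), the cofilin phosphatase Ssh2 (−1.31 ± 0.19) and Dusp18 (−1.20 ± 0.26). In KO Dusp28 rose by 1.22 ± 0.32, and Dusp13 (−2.15 ± 0.45), Dusp8 (−2.06 ± 0.60) and Dusp18 (−1.57 ± 0.28) fell most. In 3F Dusp28 (1.34 ± 0.34), Ssh1 (0.64 ± 0.16) and Ssh3 (0.44 ± 0.13) rose, and Dusp13 (−1.30 ± 0.45), Ssh2 (−0.94 ± 0.19) and Dusp18 (−0.79 ± 0.27) fell most. Between KO and WT 0 of the 14 were called in either state with edgeR, 4 at rest and 3 after LPS had an unadjusted p under 0.05, DESeq2 called 0 and 1, and limma-voom called 5 and 3. The share of all genes called by DESeq2 and limma-voom between KO and WT is not given here.

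Of 44 tested MAPK kinases and regulators, 9 rose and 4 fell after LPS in WT, 12 rose and 5 fell in KO and 11 rose and 4 fell in 3F. The shares called were 29.5%, 38.6% and 34.1%, beside 28.5%, 26.9% and 31.2% of all genes, and those of WT and 3F were close to these. In WT the largest rises were Mapkapk2 (1.60 ± 0.17), the p38-activated kinase of mRNA control, the MSK kinase Rps6ka4 (1.52 ± 0.22) and Map3k8 (1.33 ± 0.17), which links TLR4 to ERK. The largest falls in WT were Rps6ka2 (−1.32 ± 0.22), Map3k20 (−0.98 ± 0.13) and Mknk2 (−0.62 ± 0.20). In 3F Rps6ka4 (1.83 ± 0.22), Mapkapk2 (1.68 ± 0.17) and Map3k8 (1.24 ± 0.17) rose most, and Rps6ka2 (−1.34 ± 0.22), Map3k20 (−0.92 ± 0.13) and Mapkapk3 (−0.41 ± 0.13) fell most. In KO the rises were led by the ERK pathway inhibitor Spry1 (2.19 ± 0.70, from 0 to 5 resting counts), Rps6ka4 (1.49 ± 0.22) and the p38 isoform Mapk11 (1.22 ± 0.35), and the falls by Map3k20 (−1.19 ± 0.13), Rps6ka2 (−1.16 ± 0.22) and Mknk2 (−0.72 ± 0.20). The median log2 change of this list was 0.10 in WT and in KO and 0.22 in 3F, where those of the 9 phosphatases were negative. Between KO and WT at rest 7 were called (15.9%, beside 9.4% of all genes), led by Mapkapk2 (0.88 ± 0.16), Map3k8 (0.69 ± 0.17) and Mapk8ip3 (0.58 ± 0.14), with Map3k20 (−0.43 ± 0.13) the only fall. After LPS 2 were called (4.55%, beside 4.79%), Map3k5 (0.73 ± 0.13), the kinase ASK1 upstream of JNK and p38, and Map3k20 (−0.64 ± 0.13).

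Of the early response genes, which MAP kinases induce soon after a stimulus, more were called lower than higher at 16 h in each genotype. Of 26 tested, 2 rose and 7 fell in WT, 1 rose and 13 fell in KO, and 1 rose and 11 fell in 3F. The shares called were 34.6%, 53.8% and 46.2%, beside 28.5%, 26.9% and 31.2% of all genes. Fosb had 3 counts or fewer in all LPS libraries, so its fall is given as a bound of at least 32.8-fold in WT, 35.6-fold in KO and 30.8-fold in 3F. Egr3 was at the same floor after LPS in WT and 3F and was at least 5.60-fold and 8.19-fold lower there, and it changed by −2.56 ± 0.79 in KO. Nr4a1 changed by −2.18 ± 0.47 in WT and −2.86 ± 0.48 in KO, and Egr1 by −2.49 ± 0.63 in 3F. The rises were Ier3 (0.79 ± 0.21) and Atf3 (0.53 ± 0.15) in WT, Atf3 (0.46 ± 0.15) in KO and Ier3 (0.95 ± 0.21) in 3F. Between KO and WT, Ier3 was the 1 gene called at rest (1.04 ± 0.21) and after LPS Ier3 (0.78 ± 0.20) was higher and Fos (−0.96 ± 0.25) lower. Each value named from these 3 lists, apart from the Fosb and Egr3 bounds, is a log2 change with its SE. The calls of Dusp13, Dusp28, Mknk2 and Atf3 in WT, of Dusp8, Dusp28, Spry1, Mapk11, Egr3 and Atf3 in KO and of Dusp13, Dusp18, Ssh1, Ssh3 and Mapkapk3 in 3F were lost in at least 1 alternative, as were all those named between KO and WT except Mapkapk2 at rest and Map3k5 after LPS.

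Promoters were read from RefSeq (GRCm38, 250 bases before to 50 after the start), which held 8 of the 9 members. For Dusp1, Dusp3 and Dusp10 this RefSeq start lies inside the gene span given above and not at its 5′ end. Windows were searched on both strands for the CRE (TGACGTCA), which CREB and ATF factors bind, the AP-1 site (TGANTCA), the CArG box of serum response factor and the NF-kB site. Only the windows of Dusp1 and Dusp5 held any of them. Dusp1 held 1 CRE, 143 to 136 bases before its start, and a CRE was found in 1.79% of 32851 windows. Dusp5 held 2 adjoining CArG boxes, 82 to 73 and 72 to 63 bases before its start, and a CArG box was found in 1.63% of windows. The AP-1 and NF-kB sites, found in 7.81% and 8.46% of windows, were in none of the 8, and these 4 motifs do not share bases in the sequences shown. The motifs are in capitals in 100 bases from chr17:26508562-26508661 (Dusp1, minus strand) and chr19:53529023-53529122 (Dusp5, plus strand), shown because these 2 members hold the recognised response elements.
Dusp1: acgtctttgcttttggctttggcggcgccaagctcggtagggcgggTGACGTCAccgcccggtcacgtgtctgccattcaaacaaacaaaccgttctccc
Dusp5: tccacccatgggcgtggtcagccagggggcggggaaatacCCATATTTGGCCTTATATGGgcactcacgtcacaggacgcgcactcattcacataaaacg
A motif match is not a measured binding site.

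The genes whose log2 CPM followed each member most closely over the 18 libraries were listed as a description, since the points share genotype, LPS state and library. For Dusp1 these were the early response genes Egr1 (Pearson r = 0.95) and Ier2 (0.91). For Dusp4 Fgf13 was named (0.96), for Dusp5 Tmem245 (0.98) and Spag9 (0.97), and for Dusp2 Ctla2a (0.89) and Cd4 (0.88). For Dusp6 they were Tmc6 and Myo1f (0.90 each) and for Dusp7 Numb (0.93) and Asap1 (0.92). For Dusp16 they were Sdc4 (0.97) and Dsel (0.96), for Dusp10 Lamb3 (0.78) and S100a10 (0.76), and for Dusp3 Mfsd7b and Cipc (0.98 each). Resting KO replicate 3 was the lowest library for both Dusp2 (0.225 CPM) and Cd4 (0.449 CPM), and their r without it was not computed. Within the family Dusp3 ran with Dusp4 (0.93) and against Dusp16 (−0.91), Dusp4 ran with Dusp5 (0.87), and Dusp10 had no value above 0.17 with any other member.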

How the data were processed

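The authors trimmed reads with cutadapt 1.8.3, removed ribosomal reads, aligned to mm10 with HISAT2 2.1.0 and counted strand-specific reads per Gencode M15 gene with featureCounts 1.5.3. The deposited values are raw counts per protein-coding gene. No differential expression test is stated for them. Counts were analysed in R 4.3.3 with edgeR 4.0.16 (filterByExpr, TMM, quasi-likelihood, 1 coefficient for each of 6 groups over 18 libraries, 11 comparisons, two-sided), adjusted by Benjamini-Hochberg over 11357 genes, and the test was tested on simulated data. SE is the log2 fold change over the square root of F. CPM per kb uses the deposited exon length. Alternatives were DESeq2 1.42.0, limma 3.58.1 (voom), RLE factors, no filter, compared groups alone, a replicate block and leaving out each library, and leaving out both libraries that stand apart was added after the data were seen. With 3 against 3, an exact permutation p cannot go below 0.1. The study describes its BMDM cultures as 3 biological replicates of each genotype. The labels give 3 mice of each genotype without tying a library to a mouse, so p-values measure the spread between libraries, which may be in part technical. Replicates differed by more than sampling noise. Total counts of 4071084 to 19818043 per library bear on the precision of low genes, and floors cover counting error only. Members and lists were chosen with earlier results of these data known. All 9 members were named in each comparison, with up to 3 called list genes per direction for the LPS responses and KO against WT, and the 2 most correlated genes per member, 1 of which is not reported here.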

Additional observations from a re-analysis of the deposited data

How the results depend on the processing

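Over the tallied values of the 9 members under the alternatives, 948 kept both their sign and their side of the threshold, 26 lost a call, 46 gained one and 52 turned sign. The tally leaves some values out. For KO against 3F at rest it holds only Dusp4, Dusp5 and Dusp7. For the KO interaction it holds only Dusp2, Dusp3, Dusp4, Dusp5 and Dusp16, and for the 3F interaction only Dusp2 and Dusp7. The calls of Dusp3, Dusp4, Dusp5, Dusp6 and Dusp16 in the LPS response of KO, and of Dusp4 between KO and either WT or 3F after LPS, held in all alternatives run. The causes of the changes were not tested. The count of members called for the LPS response of WT was 3 and became 6 with DESeq2 or the compared groups alone and 5 with RLE factors or limma-voom. For 3F it was 5 and became 8 with limma-voom or without both libraries that stand apart. Without both, it went from 0 to 1 for KO against WT at rest and for the KO interaction, and the latter was also 1 with DESeq2 and limma-voom. Limma-voom gave 2 for KO against 3F at rest and 4 after LPS, and the compared groups alone gave 5 after LPS. Leaving out 1 library gave 1 to 3 for KO against WT after LPS, 0 to 2 for KO against 3F at rest and 1 to 2 after LPS. The number of all genes called moved with some settings too. For the LPS response of WT it was over 1.5 times that of the main fit with limma-voom. It was somewhat higher with DESeq2 and the compared groups alone, and slightly lower with RLE factors. For 3F and the comparisons of genotypes, the all-gene counts under these settings are not given here.

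The replicate numbers are shared across groups, and the labels do not say that a number marks 1 mouse. The count columns carry letters that run with the numbers, so resting and LPS libraries of a genotype share a letter. The study explains such letters as culture replicates for its small RNA libraries, and no source used here says so for these. Deviations from the group means correlated over 0.1 in 5 of 9 pairs of resting and LPS libraries, with r from 0.03 to 0.32. For libraries of 2 genotypes that share a number and a state, 4 of 18 pairs were over 0.1, with r from −0.29 to 0.21. These values do not settle whether the numbers mark pairs. The main fit left the libraries unpaired and may therefore ignore a real pairing. With a replicate block the members called were 4 for the LPS response of WT, 7 for KO and 6 for 3F, 3 for KO against WT and 2 for KO against 3F after LPS, and 0 in the other comparisons. The additional calls were Dusp4 in WT (adjusted p 0.0387) and Dusp2 in 3F (0.0273).

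The log2 values that turned sign in the tally above belong to members that were not called. With limma-voom, Dusp10 became 0.33 for the LPS response of KO, −0.54 and −0.02 for KO against WT at rest and after LPS and −0.06 for 3F against WT at rest. Dusp3 and Dusp7 became 0.13 and 0.01 there, Dusp5 became 0.18 for 3F against WT after LPS, and the KO interaction of Dusp2 became −0.18. With the replicate block, Dusp5 became 0.00 for 3F against WT after LPS. Without both libraries that stand apart, Dusp10 became 0.42 for the LPS response of KO and −0.40 for KO against WT at rest, where Dusp4 became 0.02. For 3F against WT at rest Dusp3 became 0.16 and Dusp7 0.13. Dusp7 also became −0.00 for KO against 3F at rest and −0.08 for the 3F interaction.

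When 1 library was left out, Dusp10 ran from −0.34 to 0.19 for the LPS response of WT and from −0.44 to 0.50 for that of KO. Dusp2 ran from −0.92 to 0.14 for KO, and Dusp7 from −0.40 to 0.09 for 3F. For KO against WT at rest the ranges were −0.12 to 0.86 for Dusp2, −0.18 to 0.00 for Dusp4, −0.43 to 0.51 for Dusp10 and −0.12 to 0.22 for Dusp7. After LPS they were −0.14 to 0.07 for Dusp6 and −0.09 to 0.20 for Dusp10. For 3F against WT at rest they were −0.13 to 0.16 for Dusp3 and −0.31 to 0.13 for Dusp7. After LPS they were −0.01 to 0.09 for Dusp3, −0.04 to 0.29 for Dusp1, −0.44 to 0.32 for Dusp2, −0.42 to 0.35 for Dusp5 and −0.01 to 0.23 for Dusp10. For KO against 3F they were −0.09 to 0.35 for Dusp7 at rest and −0.19 to 0.09 for Dusp10 after LPS, and for the 3F interaction −0.08 to 0.37 for Dusp7. Few counts were available for Dusp10, with 14 to 47 a library, and Dusp2, with 2 to 117. How far depth accounts for the spread of these genes was not tested. Dusp5 had 21 to 313 counts and a larger SE than Dusp16, which had 72 to 647. For the other gene lists, 39 of 189 counts of called genes under an alternative differed by over 1.5 times from those reported.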
